A study of Mus musculus with 4 samples.

Results

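miR-34a-5p, miR-34b-5p, miR-34c-5p and miR-21a-5p (mmu-miR-34a-5p, mmu-miR-34b-5p, mmu-miR-34c-5p and mmu-miR-21a-5p in the files) are miRNAs tied to p53, cell death and stress, and they were followed in the rostral telencephalic primordium of Rx-Dicer mutant and control embryos by sequencing small RNA. The 4 members were taken by name out of 1059 mature miRNAs listed in each library, of which 634 had a count in at least 1 library. All 4 reached the minimum of 10 counts in at least 2 libraries, as did 274 miRNAs in all. The study asked which miRNAs and pathways change when Dicer is lost early from the telencephalon.

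Small RNA was sequenced at E11.5 from the rostral-most part of the primordium, in 2 Rx-Dicer libraries and 2 control libraries. Rx-Dicer mutants carried RxCre and DicerF/F. The controls are called WT in the labels and Dicer F/F littermates in the study's methods, so that they would share the floxed alleles and lack Cre. Cre was driven by the regulatory sequences of Rx (Rax) and therefore acts in the Rx lineage, while cells outside it keep Dicer. The Rx-Cre line was kept on a CD1 background and the floxed line on C57BL/6. The number of embryos behind each library is not given in the sources used here, so p-values rest on the spread between libraries, which may be technical. In edgeR's test the spread used for each miRNA is estimated partly from all tested miRNAs. The files hold miRNAs and no mRNAs, so the deletion of Dicer1 itself could not be checked in them.

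The miR-34 family is induced directly by p53, and through its seed it lowers cell cycle and survival proteins, among them cyclins, Cdk6 and Bcl2. miR-34a is made from its own gene, whereas miR-34b and miR-34c come from a shared primary transcript that is best known from ciliated and germ cells. miR-21a is a widely expressed, stress-responsive miRNA that acts against cell death, with Pdcd4 among its known targets, and it is typically abundant in mesenchymal and immune cells. Dicer cuts the hairpins of all 4 miRNAs.

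The mature sequences are shown because the seed (bases 2 to 8, in capitals) sets which messages a miRNA can bind, and because it separates miR-21a from the miR-34 family. They were taken 5′ to 3′ from RefSeq on build GRCm38.p6, the build known as mm10, which holds 3 of the 4 members by name (miR-34c-5p is named only). The 2 miR-449 sequences are included because they carry the seed of miR-34.
miR-34a-5p: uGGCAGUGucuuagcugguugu
miR-34b-5p: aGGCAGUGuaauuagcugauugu
miR-449a-5p: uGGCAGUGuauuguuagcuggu
miR-449c-5p: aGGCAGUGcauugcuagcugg
miR-21a-5p: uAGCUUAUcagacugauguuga
Of 1679 mature mouse miRNAs held there, 4 have the seed GGCAGUG, and these are the 4 shown above with that seed. miR-34c-5p could not be counted among them, since its sequence is not held there under that name. As a member of the miR-34 family it is grouped with this seed below. The seed of miR-21a, AGCUUAU, is held by 2, the other being miR-21c. miR-34a-5p and miR-34b-5p are identical from base 2 to base 9 and at 11 of the 22 positions compared without gaps.

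The genes lie at separate places in mm10 (GENCODE M21 annotation). Mir34a is on chromosome 4 from 150068454 to 150068555, on the plus strand, within an exon of Gm37795, a transcript of uncertain class. Mir34b (51103562 to 51103645) and Mir34c (51103034 to 51103110) are on the minus strand of chromosome 9 next to each other, and both lie opposite an intron of Btg4. Mir21a is on the minus strand of chromosome 11 from 86584067 to 86584158, inside the last exon of Vmp1, downstream of its stop codon. Each member has a single row in the files, so no choice between precursor rows was needed for it.

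Libraries held between 516517 and 1299067 counts on mature miRNAs, and both mutant libraries held fewer than both controls. Total read numbers were not examined, so sequencing depth and a smaller share of mature miRNAs cannot be told apart here. Levels are given as CPM scaled by edgeR's TMM method, with factors between 0.814 and 1.17. In the library with the fewest counts, 1 count equals 1.71 scaled CPM, and 3 counts, taken as the floor of detection, equal 5.12. The brain miRNA miR-9-5p made up between 28.2% and 42.6% of counts, and was the main neural marker. The 4 neural markers found, of 6 listed, summed to 241219 and 259441 scaled CPM in mutants and to 340293 and 524411 in controls. Both mutants lay below both controls, as for 24.5% of single tested miRNAs, and miR-9-5p gave nearly all of this sum. Of the 3 tested, miR-9-5p and miR-124-5p were at −0.79 and −0.72 on the log2 scale, and miR-128-1-5p at 0.05 with overlapping genotypes. The part of neural markers in the results for the members was not tested. Each level depends on what else its library holds, and a fall shared by all of them would not appear. In dissected tissue, fewer cells of a type and less RNA per cell cannot be told apart.

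The 4 members differed widely in level. A read covers a whole mature miRNA, so these levels need no correction for length. In control libraries miR-21a-5p averaged 12095 scaled CPM, 332 times the level of miR-34a-5p, and was the miRNA at rank 21 of 274. miR-34c-5p averaged 436 scaled CPM (rank 100), miR-34b-5p 66.8 (rank 176) and miR-34a-5p 36.4 (rank 215). The order of miR-21a, miR-34c and the other 2 members held in every library. Between miR-34a and miR-34b it did not, since miR-34b was higher in 3 libraries and miR-34a in control library 2, where the values were 41.2 and 37.9.

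None of the 4 members passed the test between genotypes (edgeR's quasi-likelihood test, adjusted p under 0.05). Over all 274 miRNAs tested, 2.55% passed as lower (7 miRNAs) and 0% as higher, while without adjustment p was under 0.05 for 23 lower (8.39%) and 3 higher miRNAs (1.09%). Among the members 0 reached an unadjusted p under 0.05, and 0 were called by DESeq2's Wald test, which called 11 miRNAs over all tested. The median log2 fold change of the 4 members was 0.21, with values above 0 for 3 of them, beside a median of 0.04 and 149 values above 0 over all 274.

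**Figure D1:**
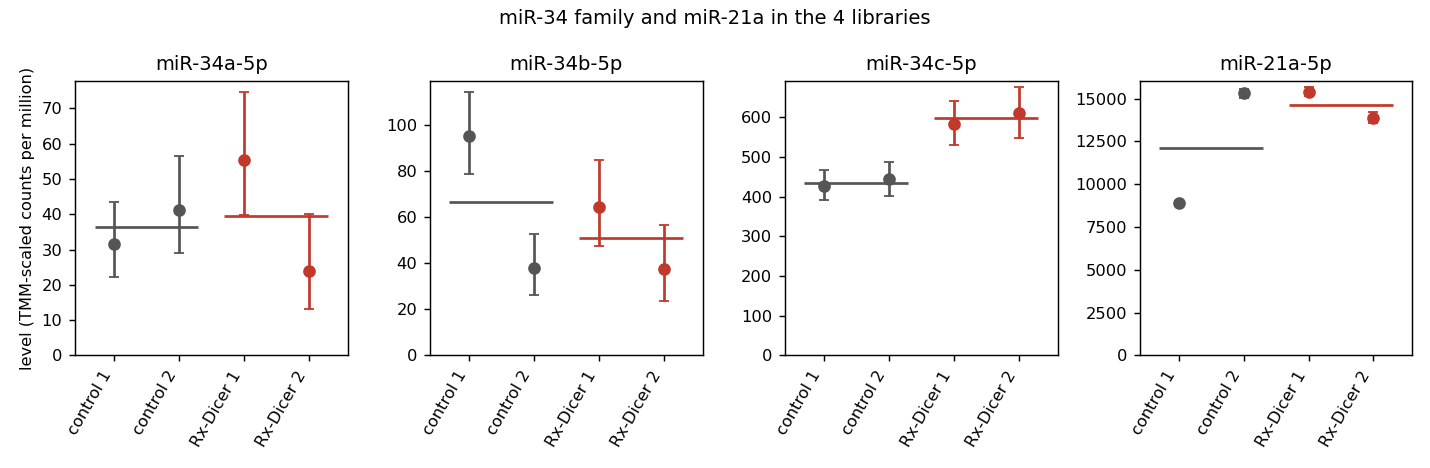
Level of each member in each library, as TMM-scaled CPM from 0, with bars for the 95% exact interval of counting error and horizontal lines for the mean of 2 libraries. miR-34c-5p lay higher in both Rx-Dicer libraries (584 and 610) than in both controls (428 and 443), while the other members overlapped between genotypes.

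miR-34c-5p, the most abundant of the p53-induced family here, was the member whose libraries were separated by genotype. Its counts were 444 (Rx-Dicer library 1), 358 (Rx-Dicer library 2), 515 (control library 1) and 409 (control library 2). As scaled CPM this was 584 and 610 in the mutants and 428 and 443 in the controls. Both mutant libraries thus lay above both controls, and libraries of the same genotype differed by 1.05-fold in mutants and 1.04-fold in controls. The mutant mean of 597 ± 19.0 was 1.37 times the control mean of 436 ± 10.9 (SD, n = 2 libraries each). On the log2 scale the difference was 0.45, with a standard error of 0.22 and a 95% interval of −0.06 to 0.97. This gave an adjusted p = 0.526 (unadjusted 0.0768) by edgeR's quasi-likelihood test. Of all tested miRNAs, 17.9% likewise had both mutant libraries above both controls, so this separation is not unusual in these data. By log2 fold change, miR-34c-5p was at rank 34 of 274 from the top.

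The size of this difference depended on how libraries were scaled. It was 0.86 with total counts only (adjusted p = 0.188 by edgeR's quasi-likelihood test) and 0.04 with red-cell miRNAs set equal (adjusted p = 0.967, same test). These scalings moved the median of all tested miRNAs to 0.44 and −0.37. Relative to that median, miR-34c-5p was higher by 0.41 to 0.45 on the log2 scale in the 12 settings that used all libraries, and by 0.39 to 0.50 with each library left out. Red-cell markers did not all go 1 way. miR-451a and miR-486a-5p were at 0.56 and 0.39 (adjusted p = 0.497 and 0.603, same test), and miR-144-5p was at −0.16 with overlapping genotypes. These 3, of 4 listed, summed to 7595 and 8504 scaled CPM in mutants and to 5737 and 6362 in controls. Both mutants lay above both controls, as for 17.9% of single tested miRNAs. The part of red cells in the miR-34c value was not tested.

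miR-34b-5p, made from the same locus as miR-34c, was not separated by genotype. Its counts were 49 and 22 in the mutants (libraries 1 and 2) and 115 and 35 in the controls. As scaled CPM this was 64.4 and 37.5 in mutants and 95.6 and 37.9 in controls. The control libraries differed by 2.52-fold, and their 95% exact counting intervals, 78.9 to 115 and 26.4 to 52.8, did not overlap. The genotypes overlapped, the mutants averaging 51.0 ± 19.0 and the controls 66.8 ± 40.7 (SD, n = 2 libraries each). The log2 fold change was −0.39 (standard error 0.51, 95% interval −1.59 to 0.81, adjusted p = 0.856 by edgeR's quasi-likelihood test). Its sign rested on control library 1, without which it was 0.47.

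The ratio of miR-34c to miR-34b within a library is free of library scaling, but reads shared between them were not measured. miR-34c made up 90.1% of the counts of both in Rx-Dicer library 1 (95% Wilson interval 87.1 to 92.4) and 94.2% in library 2 (91.4 to 96.1). For control library 1 the share was 81.7% (78.5 to 84.6) and for control library 2 92.1% (89.2 to 94.3). Control library 1 stood below the other 3, and the share in control library 2 lay between those of the mutants. The means differed by 5.20 percentage points (two-sided exact permutation test, p = 0.667, where 2 libraries against 2 cannot give less than 0.333). Without control library 1 the difference was 0.019 percentage points.

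miR-34a-5p, the family member most often used as a readout of p53 activity, was the least abundant member. Its counts were 42 and 14 in the mutants (libraries 1 and 2) and 38 in each control library. As scaled CPM this was 55.2 and 23.9 in mutants and 31.6 and 41.2 in controls. The mutant libraries held both the highest and the lowest value and differed by 2.31-fold, while the controls lay between them. The mutants averaged 39.5 ± 22.2 and the controls 36.4 ± 6.80 (SD, n = 2 libraries each). The difference was 0.14 on the log2 scale, with a standard error of 0.47 (edgeR's quasi-likelihood test, adjusted p = 0.963). Its 95% interval, −0.96 to 1.25, covers changes of well over 1.5-fold in either direction, which these libraries could not resolve. Without Rx-Dicer library 1 the value was −0.60, and without Rx-Dicer library 2 it was 0.62.

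As a family, the 3 miR-34 members together gave 535 and 394 counts for the mutants and 668 and 482 for the controls. Their sum was 703 and 672 scaled CPM in Rx-Dicer mutants and 555 and 523 in controls. Both mutants lay above both controls, as for 17.9% of single tested miRNAs. miR-34c contributed between 77.1% and 90.9% of the sum in each library, and the sum largely repeats its values. The log2 fold change of the sum was 0.35. Members of a family can share reads, and how many they shared was not measured.

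miR-449a-5p and miR-449c-5p carry the same seed and are best known from cells with motile cilia. Between the mutant libraries they varied more than the miR-34 members, while between controls miR-449a-5p (1.49-fold) varied less than miR-34b-5p (2.52-fold). The 2 miR-449 miRNAs lie in an intron of Cdc20b on chromosome 13, 1442 bases apart. The counts of miR-449a-5p were 371 and 69 in the mutants (libraries 1 and 2) and 389 and 200 in the controls. As scaled CPM this was 488 and 118 in mutants and 323 and 217 in controls, a 4.14-fold spread between the mutant libraries. miR-449c-5p had 135 and 37.5 scaled CPM in mutants and 87.3 and 31.4 in controls. In both genotypes, library 1 exceeded library 2 for these 2 miRNAs and for miR-34b, and the genotypes overlapped for all 3. The log2 fold changes were 0.17 (adjusted p = 0.963) and 0.54 (adjusted p = 0.820) in edgeR's quasi-likelihood test. miR-449b was listed at 0 in every library. With these included, the miRNAs of this seed summed to 1326 and 827 scaled CPM in mutants and 966 and 771 in controls, and miR-449 made up 18.8% to 47.0% of that sum.

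**Figure D2:**
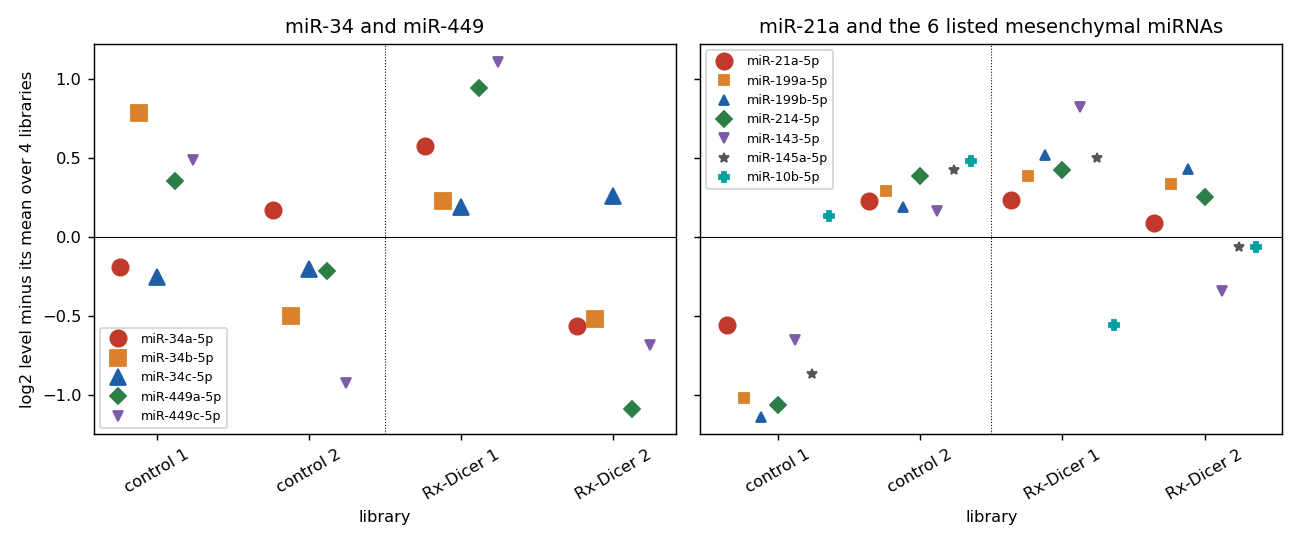
Log2 level of each miRNA in each library minus its mean over the 4 libraries, for the miRNAs with the miR-34 seed (left) and for miR-21a-5p with the 6 listed mesenchymal miRNAs (right). miR-449a, miR-449c and miR-34b were higher in library 1 than in library 2 of both genotypes, and the miRNAs on the right were lowest in control library 1 except miR-10b-5p, which was lowest in Rx-Dicer library 1.

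miR-21a-5p, the abundant member, was set apart by a single control library. Its counts were 11718 and 8150 in the mutants (libraries 1 and 2) and 10686 and 14121 in the controls. As scaled CPM this was 15403 and 13897 in mutants and 8881 and 15310 in controls. Control library 1 was the lowest of the 4, and control library 2 lay between the mutants. The mutants averaged 14650 ± 1065 and the controls 12095 ± 4546 (SD, n = 2 libraries each). The log2 fold change was 0.28 (standard error 0.31, 95% interval −0.45 to 1.01, adjusted p = 0.804 by edgeR's quasi-likelihood test). Without control library 1 it was −0.03, and without control library 2 it was 0.68 (unadjusted p = 0.0351, adjusted p = 0.283, same test). At these counts counting error is small, and the interval reflects the spread between libraries.

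As an unscaled share of the library, miR-21a-5p took 1.80% and 1.58% of the mutant counts (libraries 1 and 2) and 0.823% and 1.25% of the control counts. On this scale both mutants lay above both controls (two-sided exact permutation test, p = 0.333, the smallest possible here), as they did for 48.5% of all tested miRNAs, so the separation is not particular to miR-21a. The log2 fold change with total counts only was 0.71 (adjusted p = 0.223 by edgeR's quasi-likelihood test), and with equal red-cell miRNAs it was −0.11. Relative to the median of all tested miRNAs it was 0.24 to 0.31 in the 12 settings that used all libraries.

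Of 6 miRNAs listed as best known from mesenchyme, 5 were lowest in control library 1, as miR-21a-5p was. The share of all tested miRNAs that were lowest in that library was not counted. The 3 tested miRNAs nearest to miR-21a-5p in pattern, miR-431-5p, miR-497b and miR-411-5p, were also lowest there and are not on this list. The 6 (miR-199a-5p, miR-199b-5p, miR-214-5p, miR-143-5p, miR-145a-5p and miR-10b-5p) summed to 12077 and 11574 scaled CPM in Rx-Dicer libraries 1 and 2, 4703 in control library 1 and 11402 in control library 2. Control library 1 was again the lowest. miR-199a-5p, which gives most of this sum, was at 10431 and 10096 in mutants and 3935 and 9787 in controls, with both mutants above both controls, as for 17.9% of all tested miRNAs (log2 fold change 0.58, adjusted p = 0.638 by edgeR's quasi-likelihood test). The exception was miR-10b-5p, at 160 and 227 in mutants and 260 and 331 in controls. The ratio of miR-21a to this sum was 1.89 in control library 1 and 1.20 to 1.34 in the others. The part of mesenchymal cells in the miR-21a value was not tested. The 3 white-cell markers found, of 5 listed, summed to 88.1 to 139 scaled CPM. Among them miR-142a-5p was at 0.46 and miR-150-5p at −1.04 on the log2 scale. For endothelial miR-126a-5p the values were 431 and 244 in mutants and 253 and 403 in controls. The 3p arms of miR-142a, miR-223 and miR-126a were not analysed here, so these values do not measure the full signal of those cells.

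The relatives of miR-21a named in the files were near 0. miR-21b had 1 count and miR-21c had 2 counts, all in Rx-Dicer library 2 and below the floor of 3 counts, and miR-590-5p was listed at 0 in each library.

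**Figure D3:**
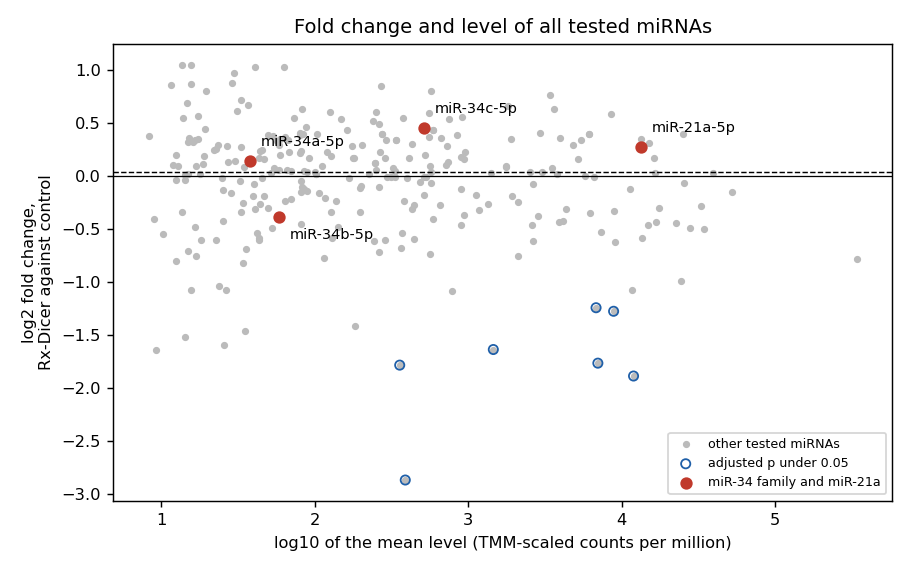
Log2 fold change of Rx-Dicer against control plotted against the log10 of the mean scaled CPM for the 274 tested miRNAs, with the 4 members in red and the 7 miRNAs with an adjusted p under 0.05 circled. The members lie between −0.39 and 0.45, within the main band of points around the median of 0.04 (dashed line).

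The other tested miRNAs that p53 raises or whose maturation it promotes gave no call in either direction. The 3p arms of miR-107, miR-29a, miR-29b and miR-29c were listed but not analysed here. Of 19 listed names, 13 were in the files and 7 were tested, and 0 passed in edgeR's quasi-likelihood test, with 0 at an unadjusted p under 0.05 and 0 in DESeq2's Wald test. Their median log2 fold change was −0.07, with 4 values below 0 and 3 above. miR-192-5p, a p53-induced miRNA that restrains the cell cycle, was at 402 and 399 scaled CPM in mutants and 420 and 552 in controls. Both mutant values lay below both controls, as for 24.5% of all tested miRNAs, and the log2 fold change was −0.28 (adjusted p = 0.722 by edgeR's quasi-likelihood test). miR-15a-5p, which acts on Bcl2, was also lower in each mutant library, at 65.7 and 71.6 against 88.9 and 98.7 scaled CPM (log2 fold change −0.45, adjusted p = 0.638, same test). Its cluster partner miR-16-5p was at −0.07. miR-143-3p and miR-145a-5p, which also mark mesenchyme, were at 0.36 and 0.34 and were lowest in control library 1.

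A list of 5 names was drawn up for miRNAs reported to act on p53 mRNA, of which 4 were tested. One of these, miR-25-5p, is not itself of that class, since the 3p arm of miR-25 is the one reported and was not analysed here. Over all 274 tested miRNAs, 125 had log2 fold changes below 0. Those of the 4 listed miRNAs were all below 0 (median −0.41, miR-25-5p included), from −0.29 to −0.68. None of these 4 passed at an adjusted p under 0.05 in edgeR's quasi-likelihood test or in DESeq2's Wald test. Among them 1 was lower at an unadjusted p under 0.05. This was miR-504-5p, a direct repressor of p53, at 287 and 278 scaled CPM in mutants and 460 and 443 in controls. Both mutant libraries lay below both controls, as for 24.5% of all tested miRNAs, and the difference was −0.68 on the log2 scale, with a standard error of 0.24 (edgeR's quasi-likelihood test, adjusted p = 0.344). miR-125b-5p, another repressor of p53, was at 24798 and 21093 in mutants and 28943 and 35751 in controls, with a log2 fold change of −0.50 (adjusted p = 0.526, same test). miR-30d-5p and miR-25-5p overlapped between genotypes, with values of −0.29 and −0.32.

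**Figure D4:**
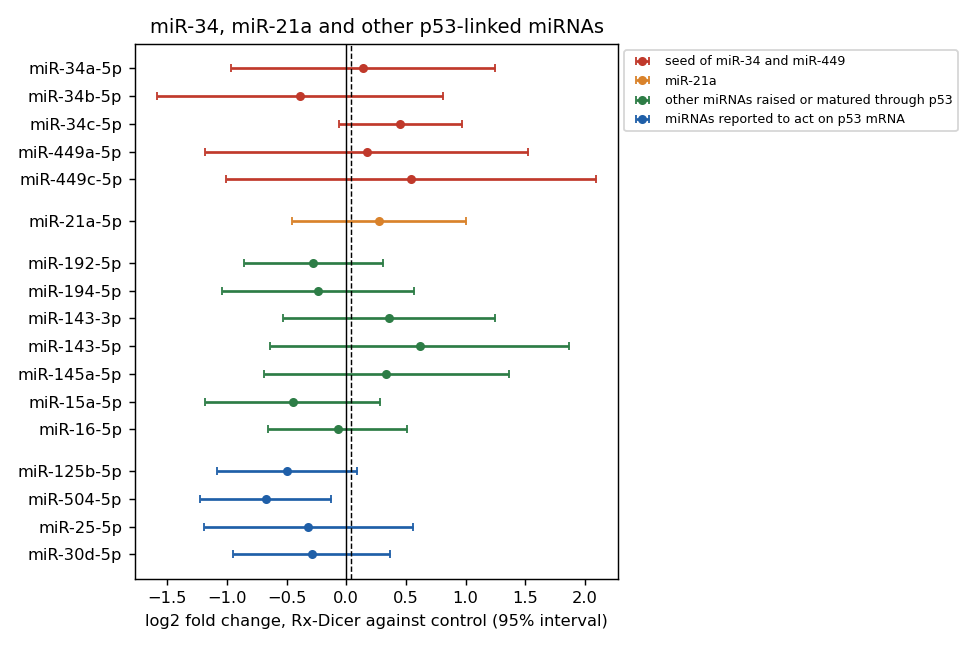
Log2 fold change of Rx-Dicer against control, with its 95% interval from edgeR's quasi-likelihood test, for the tested miRNAs with the miR-34 seed, miR-21a-5p, the other miRNAs raised or matured through p53 and those listed as acting on p53 mRNA, where miR-25-5p is the other arm of the reported miRNA. The dashed line is the median of all 274 tested miRNAs (0.04), and the interval of 1 of the 17 miRNAs shown, miR-504-5p, lies wholly below 0.

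The tested miRNAs most like each member in their pattern over the 4 libraries were ranked by the root mean square difference of log2 levels after centring, over 4 points each and with no test. For miR-34a-5p they were miR-218-5p (0.049), miR-135b-5p (0.063) and miR-669a-5p (0.11), against a median of 0.51 over all tested miRNAs. For miR-34c-5p they were miR-671-5p (0.037), miR-380-5p (0.040) and the red-cell miRNA miR-486a-5p (0.054), against a median of 0.38. For miR-21a-5p they were miR-431-5p (0.065), miR-497b (0.082) and miR-411-5p (0.11), against a median of 0.44. miR-34b-5p had no comparably close match. Its nearest were miR-770-5p (0.25), miR-335-5p (0.25) and miR-1943-5p (0.26), against a median of 0.62. None of these 12 miRNAs was another member.

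**Figure D5:**
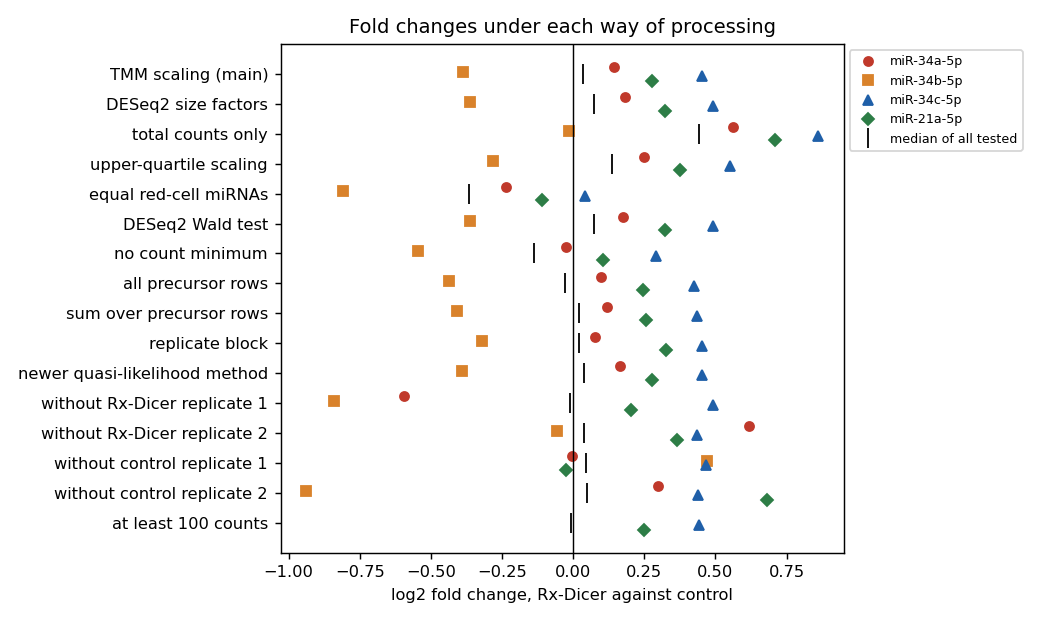
Log2 fold change of each member under each way of scaling, testing, filtering and leaving out libraries, with a bar for the median of all tested miRNAs in that setting. miR-34c-5p stays above 0 in all 16 settings (0.04 to 0.86), while the other members cross 0 in at least 1 setting, miR-34b-5p without control library 1 and miR-21a-5p without control library 1 or with equal red-cell miRNAs.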

How the data were processed

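Small RNA libraries were sequenced by the authors with 75-base single-end reads, checked with FastQC (version 2.6.14 per the labels) and counted with miRDeep2 on mm10 and miRBase v22. The deposited values are counts per pair of mature miRNA and precursor, 1211 rows per library, without normalization. The version of miRDeep2 and its mismatch setting are not given in the sources used here.

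The row with the highest total was kept for each mature miRNA, and the 274 that reached 10 counts in 2 or more libraries went into edgeR's quasi-likelihood test (R 4.3.3, limma 3.58.1, edgeR 4.0.16 with its legacy method). Scaling was by TMM and the design held genotype alone. P-values were adjusted by Benjamini-Hochberg over all tested miRNAs, with 0.05 as the threshold. The study used DESeq2, which was run as an alternative (DESeq2 1.42.0). Shares and exact permutation tests used scipy 1.17.1 with Python 3.11.15. Intervals of single libraries cover counting error only, since PCR copies cannot be told from molecules. Fits without 1 library assume that the lone library of a genotype varies like the other genotype. Scripts were tested on simulated data. The rule for the members uses names only, but members and lists were chosen with earlier results of these data known. Named miRNAs were the members, tested miRNAs of the lists, and the 3 nearest patterns per member. miRNA lists came from general knowledge of p53, stress and cell types. Replicates of a genotype were compared, and none was a library deposited more than once.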

Additional observations from a re-analysis of the deposited data

How the results depend on the processing

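No member passed an adjusted p of 0.05 in any setting, and the direction of miR-34c-5p was kept in each of 15 alternatives. With equal red-cell miRNAs, the log2 fold changes of miR-34a-5p, miR-21a-5p and summed miR-34 counts were −0.24, −0.11 and −0.060, and with no count minimum that of miR-34a-5p was −0.025. These settings also moved the median of all tested miRNAs, from 0.04 to −0.37 and −0.14. With each library left out in turn, miR-34a-5p ranged from −0.60 to 0.62, miR-34b-5p from −0.94 to 0.47, miR-34c-5p from 0.43 to 0.49, miR-21a-5p from −0.026 to 0.68, summed miR-34 counts from 0.26 to 0.43, and the miR-34c share difference from 0.019 to 10.4 percentage points. miR-34a-5p and miR-34b-5p have no value at a minimum of 100 counts.

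Over all tested miRNAs, 7 were lower. The number was 4 with DESeq2's size factors, 3 with upper-quartile scaling, 0 with total counts only, 11 with DESeq2's Wald test, with all precursor rows and with equal red-cell miRNAs, 14 with no count minimum, and 0 to 5 with each library left out (0 without either control library, 1 without Rx-Dicer library 1). The cause was not tested. None was higher in any setting, where unadjusted p under 0.05 gave 0 to 51 higher. edgeR's newer quasi-likelihood method, chosen after seeing the data, called 7.

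With the replicate block, 0 miRNAs were called (without adjustment, p was under 0.05 for 20 lower and 4 higher), and the members had log2 fold changes of 0.08 for miR-34a-5p, −0.32 for miR-34b-5p, 0.45 for miR-34c-5p and 0.33 for miR-21a-5p. The deviations of same-numbered libraries had a correlation of 0.09 across 274 miRNAs, so the numbers gave no sign of pairing. Counts of miR-34a-5p and miR-34b-5p were 14 to 115 per library, and the part of depth in their wide intervals was not tested.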

Other observations

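miRNAs linked to hypoxia, inflammation and neuronal activity gave values on both sides of 0. Of 11 listed names 7 were in the files and 6 were tested, 3 below and 3 above 0, with a median log2 fold change of −0.11 and with 0 passing in edgeR's quasi-likelihood test, 0 at an unadjusted p under 0.05 and 0 in DESeq2's Wald test. miR-210-5p, the minor arm of the hypoxia-induced miR-210, gave 11 and 13 counts in the mutants (libraries 1 and 2) and 7 and 11 in the controls. As scaled CPM this was 14.5 and 22.2 against 5.82 and 11.9, a difference of 1.05 on the log2 scale with a standard error of 0.55 (edgeR's quasi-likelihood test, adjusted p = 0.542). This was the highest value of all 274 tested miRNAs, and it rests on 7 to 13 counts per library. miR-146b-5p, which restrains inflammatory signalling, was at 801 and 830 scaled CPM in mutants and 1267 and 845 in controls. Both mutant libraries were below both controls by a narrow margin, as for 24.5% of all tested miRNAs. The log2 fold change was −0.37 (adjusted p = 0.659, same test). The related miR-146a-5p was at 0.12, miR-155-5p at −0.24 and miR-212-5p at −0.30, each with overlapping genotypes.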
